A study of Bos taurus with 30 samples.

Results

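Epithelial and stromal cells of the bovine endometrium were compared after both had been exposed to 1 ng/mL of insulin in the same microfluidic devices. The comparison used 6 of the 30 RNA sequencing libraries of the series, 3 of epithelial and 3 of stromal cells, paired by replicate number. It centres on on/off genes, which were defined as protein-coding genes with at most 3 counts in each of the 3 libraries of one cell type and at least 10 CPM (the count scaled to a total of 1000000 per library) in each of the 3 libraries of the other. Gene types were deposited for 17468 of the 27607 genes counted, and 15677 were protein-coding. Of these 15677 genes, 141 were on in epithelial and off in stromal cells (0.899%). In the other direction, 12 were on in stromal and off in epithelial cells (0.0765%). The dose was chosen because its stromal libraries carried the least epithelial RNA. Because the same 6 libraries chose these genes, their levels in them are a description and carry no test.

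The cells came from uteri of nonpregnant cows early in the luteal phase and were grown as epithelial-enriched and stromal-enriched cultures, so neither population was pure at the start. In each device the epithelial cells lay in the upper chamber and the stromal cells on the underside of a porous membrane in the lower chamber, and medium with 5 mM glucose flowed past both. The other insulin libraries came from the vehicle control without added insulin and from 10 ng/mL of insulin, and a separate experiment without insulin treatment compared 5 mM with 50 mM glucose, each with 3 replicates per cell type. Epithelial libraries at 1 ng/mL held 10055884 to 11388528 counts and stromal libraries 10796279 to 12391819, so that 3 counts, the limit that a count of 0 allows, corresponded to 0.242 to 0.298 CPM. These limits cover counting error only.

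The endometrium is a sheet of polarized epithelium on a fibroblast-rich stroma. Epithelial cells are held together by tight junctions, adherens junctions and desmosomes, carry mucins on the apical surface and use transcription factors and splicing regulators that keep the epithelial state. Stromal fibroblasts make the fibrillar matrix, and the layers exchange secreted ligands that act on receptors of the other layer.

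The labels held for all 6 libraries. Keratin 19 (KRT19, ENSBTAG00000004905), an intermediate filament protein of simple epithelia, had 2062, 1787 and 2076 CPM in the epithelial libraries of replicates 1, 2 and 3 and 2.69, 0.339 and 2.02 CPM in the stromal libraries. KRT7, a keratin of type II, had 1408, 1493 and 1459 CPM against 0.556, 0.254 and 0.646 CPM, and KRT8, also of type II, had 898, 1284 and 854 CPM against 0.278, 0 and 0.484 CPM. No epithelial level of the 3 keratins came near a stromal one. The log2 fold changes were 10.18 for KRT19 (SE 0.519), 11.41 for KRT7 (SE 0.291) and 11.75 for KRT8 (SE 0.534), where positive values are higher in epithelial cells. The dose was chosen for low epithelial RNA in its stromal libraries, so these marker values are a description and carry no test. Fold changes, and the adjusted p-values given for other genes, are from the quasi-likelihood test of edgeR.

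The stromal markers gave a smaller difference. SPARC, a collagen-binding matrix glycoprotein, had 6003, 6774 and 7025 CPM in stromal libraries and 183, 68.7 and 364 CPM in epithelial libraries. MMP2, a gelatinase, had 2914, 3912 and 3798 CPM against 224, 56.7 and 392 CPM. Neither marker overlapped between the cell types, and both were lowest in the epithelial library of replicate 2. Vimentin (VIM), the intermediate filament of mesenchymal cells, had 4449, 3932 and 3925 CPM in stromal libraries and still 702, 664 and 573 CPM in epithelial libraries, which was 15.8%, 16.9% and 14.6% of the stromal library of the same number. Its log2 fold change of -2.78 (SE 0.154, adjusted p = 0.000118) was the smallest of the 12 markers tested, and its share of the stromal level was not lowest in replicate 2.

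**Figure D1:**
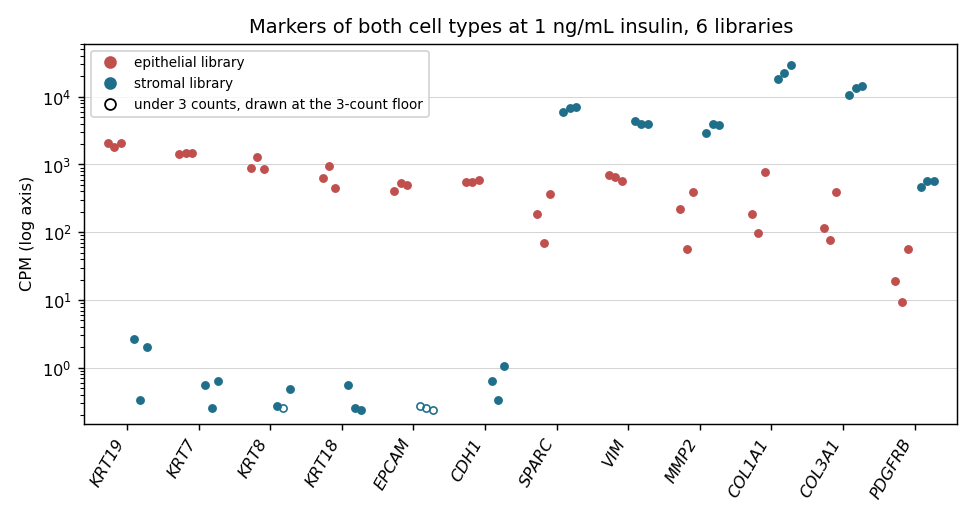
Level of 6 epithelial and 6 stromal markers in CPM on a log axis, with 1 point for each of the 3 epithelial and 3 stromal libraries at 1 ng/mL insulin; open points had under 3 counts and are drawn at the 3-count limit. Epithelial markers in stromal libraries lie at or below 2.69 CPM, whereas stromal markers in epithelial libraries lie between 9.31 CPM for PDGFRB and 773 CPM for COL1A1.

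The level of the other cell type's markers was thus unequal between the directions. Summed over KRT19, KRT7, KRT8, KRT18, EPCAM and CDH1, the epithelial markers in the stromal libraries of replicates 1, 2 and 3 reached 0.0796%, 0.0193% and 0.0720% of the epithelial mean. Summed over SPARC, VIM, MMP2, COL1A1, COL3A1 and PDGFRB, the stromal markers in the epithelial libraries reached 2.82%, 1.92% and 5.02% of the stromal mean. Fewer cells of a type and less RNA per cell cannot be told apart in these bulk libraries, and the part of admixed cells in either value was not tested.

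The same inequality was seen in abundant genes. Of 1448 genes with at least 100 CPM in every epithelial library, 63, 65 and 65 were under 1% of that level in the stromal library of the same number, and 25, 38 and 22 were under 0.1%. Of 1284 genes with at least 100 CPM in every stromal library, 3, 27 and 0 were under 1% in the epithelial library of the same number, and 0 were under 0.1% in any of them. The lowest of the stromal ratios was 0.480%, 0.283% and 1.42% in replicates 1, 2 and 3.

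Across the transcriptome, 7632 of the 12839 protein-coding genes tested were called between the cell types (59.4%), of which 3840 went toward epithelial cells (29.9%) and 3792 toward stromal cells (29.5%). Calls needed a Benjamini-Hochberg adjusted p under 0.05 with a log2 fold change beyond 0.1 in either direction, and 33.9% of the genes tested were also beyond a log2 fold change of 1. The on/off genes were a small fringe of this contrast.

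**Figure D2:**
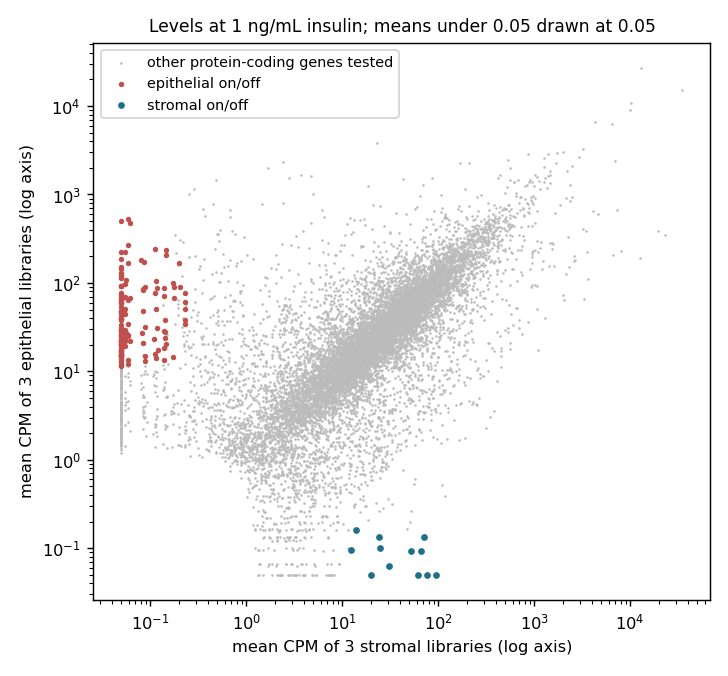
Mean CPM of the 3 epithelial libraries against mean CPM of the 3 stromal libraries at 1 ng/mL insulin, both on log axes, with 1 point per protein-coding gene tested and means under 0.05 CPM drawn at 0.05. The 141 epithelial on/off genes form a column at the low end of the stromal axis, and the 12 stromal on/off genes lie at the low end of the epithelial axis.

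Of the 141 epithelial on/off genes, 43 had 0 counts in all 3 stromal libraries, 66 had 1 to 3 counts in the sum of the 3, and 32 had more, up to 8. In the stromal libraries of replicates 1, 2 and 3, 82, 98 and 69 of the genes were at 0. Their mean epithelial levels ran from 11.6 to 534 CPM, with a median of 33.9 CPM. Separation, the lowest CPM in the own cell type divided by the highest in the other with counts under 3 set to 3, ran from 36.1 to 1446, with a median of 96.2, and was at least 100 for 67 genes. Symbols were given for all but 9 of the genes.

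The largest separations belonged to genes of the cell surface. EPCAM (ENSBTAG00000006474), a homophilic adhesion molecule of epithelia, had 402, 542 and 494 CPM in epithelial libraries and 2, 0 and 0 counts in stromal libraries. ITGB6, the beta subunit of an epithelial integrin, had 508, 737 and 358 CPM and 1, 1 and 0 counts. MUC20 (ENSBTAG00000032819), a membrane-anchored mucin, had 352, 743 and 392 CPM and 0 counts in every stromal library, so that its level was at least 1919.7-fold higher in epithelial cells with the 3-count limit taken per library. Each of these genes was seen by at most 2 reads in the 3 stromal libraries together. MUC4, another membrane mucin, had 132, 214 and 171 CPM and 1 count in each stromal library, and MUC13, a further one, had 18.7, 34.7 and 72.6 CPM and 1, 0 and 0 counts.

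Enzymes that build or trim surface proteins stood beside them. ST14, the membrane serine protease matriptase, had 198, 242 and 232 CPM in epithelial libraries and 0, 0 and 2 counts in stromal libraries, and PRSS8, the related membrane protease prostasin, had 133, 155 and 91.5 CPM and 0, 1 and 0 counts. GALNT3, which starts mucin-type O-glycosylation, had 174, 209.6 and 180.3 CPM and 0, 0 and 1 counts. GCNT3, which branches such glycans, had 194, 263 and 222 CPM and 0, 1 and 0 counts. The stromal reads of these 4 genes thus came from 1 library each. CKMT1A, a mitochondrial creatine kinase, had 183, 224 and 219 CPM and 3, 0 and 2 counts, and TNS4, a tensin of focal adhesions, had 159, 252 and 298 CPM and 3, 0 and 2 counts.

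Junction and adhesion proteins contributed 7 on/off genes out of 23 tested, beside 141 of all 12839 protein-coding genes tested. Among them were EPCAM, the tight junction proteins CLDN3, CLDN7, OCLN and TJP3 and the desmosomal plaque protein PKP3. CLDN3 had 104, 69.2 and 105 CPM and TJP3 had 68.7, 70.0 and 62.6 CPM, both with 0 counts in every stromal library, which put them at least 359-fold and at least 260.0-fold higher in epithelial cells. CLDN7 had 142, 179.9 and 180.2 CPM and 1, 0 and 1 counts. The levels of TJP3 were steady between replicates, whereas CLDN3 was lower in replicate 2 than in the others. OCLN had 73.7, 109 and 115 CPM and 2 counts in each stromal library, and PKP3 had 77.6, 75.3 and 75.8 CPM and 1, 1 and 2 counts.

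Of the 23 junction genes tested, 22 were called higher in epithelial and 0 in stromal cells, beside 29.9% and 29.5% of all genes tested. Of the 22, 15 were not on/off genes. CLDN4 had 682, 598 and 748 CPM against 0.648, 0.0848 and 1.29 CPM, and desmoplakin (DSP) had 502, 704 and 516 CPM against 0.463, 0.170 and 0.484 CPM. Plakoglobin (JUP), which adherens junctions and desmosomes share, was at 497, 485 and 521 CPM in epithelial and 147, 207 and 123 CPM in stromal libraries (log2 fold change 1.58, SE 0.175, adjusted p = 0.00101). The junction genes thus ranged from those off in stromal cells to those that both cell types expressed. CDH3, a classical cadherin, was not called, with 2.995 ± 0.279 CPM in epithelial and 3.02 ± 0.755 CPM in stromal libraries (SD, n = 3). The median log2 fold change of the list was 8.98, or 8.004 with the genes at 0 set to the 3-count limit, beside -0.0038 over all genes tested.

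Polarity and apical trafficking held 5 on/off genes among 14 tested, beside 141 of all 12839 protein-coding genes tested. All 14 were called higher in epithelial cells, beside 29.9% of all genes tested, with a median log2 fold change of 8.55. CRB3, a Crumbs protein of the apical domain, had 16.1, 16.3 and 16.4 CPM in epithelial libraries and 0 counts in every stromal library. RAB25, a GTPase of apical recycling, had 61.9, 67.6 and 73.5 CPM and 2, 0 and 0 counts, and MYO5B, a motor of the same route, had 174, 173 and 160.3 CPM and 2, 2 and 3 counts. MAL2, a transcytosis protein, was at 784, 887 and 761 CPM in epithelial libraries, and its 35, 44 and 4 counts in stromal libraries kept it outside the on/off rule. All 6 keratins of the fixed list that were tested were called higher in epithelial cells, with a median log2 fold change of 10.98, and 0 of them met the rule, whereas KRT73, a keratin outside the list, was an on/off gene.

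Regulators of the epithelial state held 5 on/off genes among 16 tested, beside 141 of all 12839 protein-coding genes tested. ESRP1, which sets epithelial splicing, had 85.7, 71.2 and 72.7 CPM in epithelial libraries and 0, 0 and 1 counts in stromal libraries. The transcription factor GRHL2 had 36.4, 38.3 and 42.3 CPM and 0, 0 and 1 counts. OVOL2, a zinc finger factor, had 11.5, 11.9 and 11.6 CPM and 0 counts in every stromal library. SOX17, which acts in the uterine epithelium, had 21.5, 24.1 and 30.8 CPM and 0, 1 and 1 counts. At most 2 reads of any of these 4 regulators were thus found in the 3 stromal libraries together.

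Of the 16 epithelial regulators tested, 15 were called higher in epithelial cells, beside 29.9% of all genes tested. The ETS factors EHF and ELF3 had 284, 369.6 and 399.9 CPM and 296, 231 and 134 CPM in epithelial libraries, and their stromal counts of 5, 0 and 1 and of 6, 0 and 0 left them outside the rule through replicate 1. KLF5 was at 275, 291 and 269 CPM in epithelial and 30.8, 33.7 and 31.7 CPM in stromal libraries, so it was expressed by both. TFAP2A, an AP-2 factor, ran the other way, with 2.29, 1.93 and 1.59 CPM in epithelial and 5.65, 14.2 and 12.1 CPM in stromal libraries (log2 fold change -2.49, SE 0.381, adjusted p = 0.00306). The median of the list was 8.24, or 6.68 with the genes at 0 set to the 3-count limit.

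Secreted and apical proteins were less uniform. Of 9 genes tested, 6 were called higher in epithelial cells, beside 29.9% of all genes tested. Among them were MUC1 (290.1, 370.0 and 402 CPM against 0.370, 0.339 and 0.807 CPM) and WFDC2, a secreted whey acidic protein (579.8, 993 and 776 CPM against 0.463, 0 and 0.888 CPM). Complement C3 was called higher in stromal cells at a low level, with 4.91, 2.80 and 11.6 CPM against 0.497, 0.439 and 0.994 CPM. Osteopontin (SPP1), a secreted phosphoprotein of the endometrium, was at 121, 829 and 189 CPM in epithelial and 264, 484 and 138 CPM in stromal libraries, and its log2 fold change of -0.06 (SE 0.370, adjusted p = 0.906) was within the spread between replicates. SPP1 followed the replicate number in both cell types, with replicate 2 highest in each. SERPINA14, the uterine serpin of ruminants, was at 0.464 ± 0.501 and 1.04 ± 0.574 CPM (SD, n = 3) and was not called. The median over the list was 9.30, or 5.36 with the genes at 0 set to the 3-count limit.

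**Figure D3:**
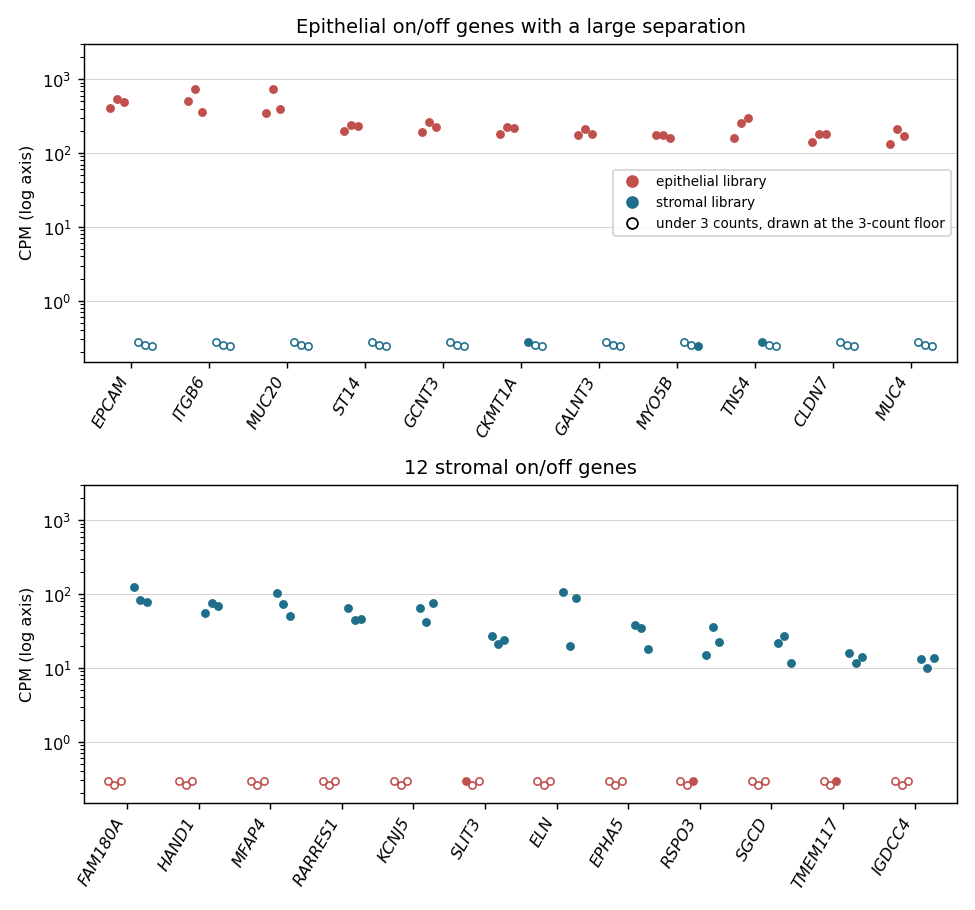
CPM on a log axis of epithelial on/off genes with a symbol and a large separation (top) and of all 12 stromal on/off genes (bottom), with 1 point per library; open points had under 3 counts and are drawn at the 3-count limit. No point of one cell type lies near the points of the other, and the on levels of the stromal genes lie between 10.1 and 124 CPM.

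Receptors and ligands were found among the on/off genes as well. OXTR (ENSBTAG00000019772), the receptor through which oxytocin acts on the endometrium, had 107, 83.8 and 84.3 CPM in epithelial libraries and 0 counts in every stromal library, at least 355-fold higher. AREG, a ligand of the EGF receptor, had 51.5, 64.5 and 75.2 CPM and 1, 0 and 1 counts. WNT7A, a ligand of the uterine epithelium, had 54.2, 59.4 and 63.3 CPM and 0, 1 and 0 counts, and IHH, the hedgehog ligand that signals from epithelium to stroma, had 12.7, 15.9 and 11.7 CPM and 0, 3 and 2 counts. IHH was thus on at a low level only. WNT3A, another WNT ligand, had 64.4, 86.6 and 74.0 CPM and 0 counts in every stromal library. OXTR, WNT3A, MUC13 and the genes of the next paragraph were chosen for mention after their values were seen.

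Transport and fate genes made up further members. SCNN1A, the alpha subunit of the epithelial sodium channel, had 37.9, 51.7 and 25.8 CPM in epithelial libraries and 1, 2 and 2 counts in stromal libraries. SLC2A5, a fructose transporter, had 26.7, 75.1 and 36.7 CPM and 0 counts in every stromal library, and CA9, a membrane carbonic anhydrase, had 122, 124 and 70.9 CPM and 1, 3 and 0 counts. SLC2A5 varied between replicates more than SCNN1A did. The paired box factor PAX2 had 27.2, 27.3 and 27.2 CPM and 0, 1 and 2 counts, and the homeobox factor DLX5 had 22.3, 23.8 and 19.7 CPM and 0, 0 and 1 counts. SERPINB5, the serpin maspin of epithelia, had 14.7, 16.8 and 15.2 CPM and 0 counts in every stromal library.

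The stromal side was shorter. FAM180A (ENSBTAG00000017427) had 124, 82.4 and 77.2 CPM in stromal libraries and 0 counts in every epithelial library, at least 329.7-fold higher in stromal cells, and it was the single stromal gene with 0 counts throughout. HAND1 (ENSBTAG00000002335), a basic helix-loop-helix transcription factor, had 55.1, 75.6 and 69.8 CPM and 0, 2 and 1 counts. MFAP4, a protein of elastic microfibrils, had 103, 74.5 and 50.0 CPM and 0, 1 and 0 counts. HAND1 was close to even between replicates, and MFAP4 and FAM180A were highest in replicate 1. HAND2, a relative of HAND1 that regulates the uterine stroma, missed the rule, with 15.6, 19.2 and 18.1 CPM in stromal libraries and 2, 0 and 7 counts in epithelial libraries.

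Elastin (ELN), the core of elastic fibres, varied most in level, with 108, 19.8 and 88.0 CPM in stromal libraries and 2, 0 and 2 counts in epithelial libraries. KCNJ5, an inward rectifier potassium channel, had 65.9, 42.2 and 76.9 CPM and 0, 0 and 1 counts, and RARRES1, a retinoid-responsive gene, had 65.6, 44.5 and 46.2 CPM and 1, 2 and 0 counts. RSPO3, a secreted amplifier of WNT signals, had 14.9, 36.2 and 22.4 CPM and 0, 0 and 3 counts. ELN was lowest and RSPO3 highest in replicate 2. The remaining members were SLIT3, a ligand of Robo receptors, EPHA5, an ephrin receptor, SGCD, a sarcoglycan, TMEM117 and IGDCC4, which had stromal levels of 10.1 to 37.8 CPM and at most 3 counts in any epithelial library. The separation of the 12 genes ran from 33.8 to 259, with a median of 68.6.

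None of the 12 was a fibrillar collagen. Within replicates 1, 2 and 3, COL1A1, a chain of type I collagen, was in epithelial libraries at 1.02%, 0.433% and 2.67% of its stromal level, and COL3A1 at 1.10%, 0.587% and 2.72%. ELN was at 0.184%, 0% and 0.226% and HAND1 at 0%, 0.232% and 0.142%. As counted, the percentages of ELN and HAND1 lay below those of both collagens in every replicate. The on/off rule had picked ELN and HAND1 for low epithelial counts in these libraries, so this order follows from the rule. For ELN in replicate 2, the 3-count limit of 0.263 CPM does not place it below the collagens. The summed stromal markers, which include both collagens, were at 2.82%, 1.92% and 5.02% in the epithelial libraries, and their part in these values was not tested.

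The thresholds cut through a continuous range. The epithelial genes just inside the level threshold were APOBEC1 and MAB21L4, with a lowest epithelial value of 10.0 and 10.1 CPM, and those just outside it were PLA2G3 and B3GNT3, with 9.75 and 9.64 CPM. At the count threshold, CKMT1A was inside with a highest stromal count of 3, and SCEL and SPINK5 were outside with 4, although SCEL had a separation of 2445, above that of every on/off gene. In the stromal direction IGDCC4 and TMEM117 were inside with a lowest stromal value of 10.1 and 11.5 CPM, GDF7 and CALN1 outside with 9.85 and 9.28 CPM, and ADCY2 and ENTPD1 outside with 4 epithelial counts. KRT7 had 6, 3 and 8 stromal counts and KRT19 29, 4 and 25, so these abundant keratins failed the count threshold.

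The matrix genes showed the other side of the contrast. Of 19 collagen genes tested, 17 were called higher in stromal cells, beside 29.5% of all genes, with a median log2 fold change of -3.81. COL1A1 had 18099, 22747 and 28951 CPM in stromal and 185, 98.4 and 773 CPM in epithelial libraries, and COL11A1, a minor fibrillar collagen, had 326, 438 and 384 CPM against 1.89, 3.25 and 5.47 CPM. COL18A1, a collagen of basement membranes, was higher in epithelial cells, with 305, 394 and 461 CPM against 165, 178 and 115 CPM (log2 fold change 1.24, SE 0.214, adjusted p = 0.00484). COL8A1 was not called, with 8.07 ± 5.49 and 22.7 ± 23.9 CPM (SD, n = 3) in epithelial and stromal libraries.

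Of 24 other matrix genes tested, 22 were called higher in stromal cells, beside 29.5% of all genes, with a median log2 fold change of -4.01. Fibronectin (FN1), an adhesive glycoprotein of the matrix, was higher in epithelial cells, with 28933, 31316 and 20574 CPM against 12598, 15694 and 10614 CPM (log2 fold change 0.94, SE 0.199, adjusted p = 0.00998, and not called without replicate 1, where it was 0.84). MMP11, a metalloproteinase, was not called, with 5.07, 3.07 and 5.47 CPM against 8.15, 3.56 and 5.25 CPM. FN1 levels did not overlap between the cell types, whereas those of MMP11 did.

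Of 23 mesenchymal regulators tested, 22 were called higher in stromal cells and 0 higher in epithelial cells, beside 29.5% and 29.9% of all genes. Their median log2 fold change was -3.87. HAND2 had a log2 fold change of -6.02 (SE 0.545, adjusted p = 0.000520), and HOXA11, a homeobox gene of the uterus, had 22.97, 38.7 and 24.9 CPM in stromal and 0.596, 0.702 and 1.39 CPM in epithelial libraries. OSR1, also a transcription factor, was not called, with 49.2 ± 22.3 and 36.5 ± 5.31 CPM (SD, n = 3) in epithelial and stromal libraries. ZEB2 was counted under 2 gene identifiers, both called higher in stromal cells, and the split of its reads is uncertain.

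Of 14 stromal surface receptors, 12 were called higher in stromal cells, beside 29.5% of all genes, with a median log2 fold change of -3.95. The 2 others, the ectoenzymes MME and NT5E, were higher in epithelial cells. MME had 9.54, 5.88 and 42.6 CPM in epithelial and 4.54, 3.99 and 6.54 CPM in stromal libraries (adjusted p = 0.0315), and NT5E had 22.96, 9.13 and 60.3 CPM and 12.3, 5.26 and 5.89 CPM (adjusted p = 0.0443). In both the epithelial library of replicate 3 was far above the others, and the levels overlapped between the cell types. MME lost its call when replicate 1 or 3 was left out (log2 fold change 1.63 and 0.75, from 1.43), and NT5E when replicate 1 was (2.04, from 1.59).

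**Figure D4:**
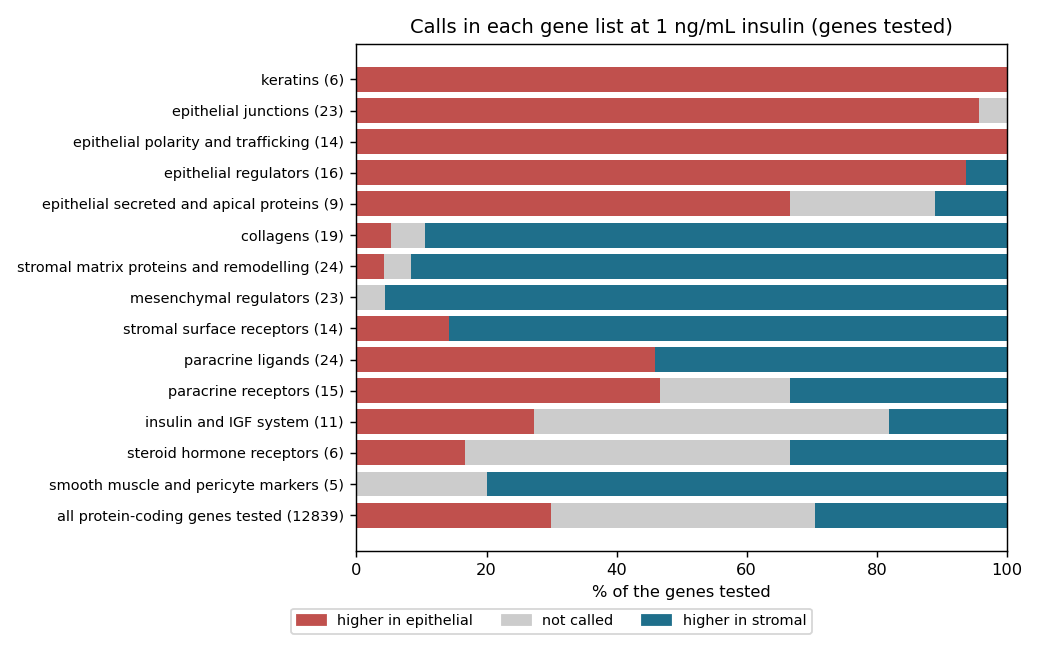
Share of the genes tested in each list that was called higher in epithelial cells, called higher in stromal cells or not called at 1 ng/mL insulin, in %, with the number of genes tested after each name. All 6 keratins and all 14 polarity genes of the lists were higher in epithelial cells, and 17 of 19 collagens were higher in stromal cells, beside 29.9% and 29.5% of all genes tested.

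Paracrine ligands split between the layers, with 11 of 24 tested called higher in epithelial and 13 in stromal cells. These counts stand beside 29.9% and 29.5% of all genes tested, and the median log2 fold change was -1.46. FGF10, a mesenchymal growth factor, had 8.52, 7.46 and 8.80 CPM in stromal libraries and 0 counts in every epithelial library, just under the level threshold of the on/off rule. IGF2 had 165, 40.5 and 149.5 CPM in stromal and 0.596, 0.263 and 0.298 CPM in epithelial libraries, and WNT2 had 133, 104 and 89.7 CPM against 0.596, 0.263 and 0.696 CPM. PDGFB went the other way, with 201, 161 and 132 CPM in epithelial libraries and 1, 1 and 5 counts in stromal libraries. Each of these 4 ligands was nearly confined to 1 layer in these 6 libraries. HGF (log2 fold change -1.88, adjusted p = 0.0234) and FGF7 (-2.82, adjusted p = 0.0143), both ligands of epithelial receptors, were called higher in stromal cells but not without replicate 1 (-1.70 and -2.51). NRG1 was counted under 2 gene identifiers, both higher in epithelial cells, and the split of its reads is uncertain.

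Of 15 receptors of such ligands, 7 were called higher in epithelial cells, 5 higher in stromal cells and 3 were not called. All genes tested gave 29.9% and 29.5%, so the stromal count is near that share and is not a result about the family. The median log2 fold change was 0.57. The HGF receptor MET had 751, 829 and 597 CPM in epithelial and 92.2, 55.5 and 31.2 CPM in stromal libraries, and ERBB3, a neuregulin receptor, had 259, 269 and 338 CPM and 1, 1 and 6 counts. PDGFRB, the receptor of PDGFB, had 473, 563 and 566 CPM in stromal and 19.2, 9.31 and 56.1 CPM in epithelial libraries. The ligand PDGFB and its receptor PDGFRB were thus highest in opposite layers, as were HGF and MET. PTCH1, the hedgehog receptor, was at 55.1, 76.0 and 82.1 CPM in epithelial and 38.0, 45.9 and 48.3 CPM in stromal libraries (log2 fold change 0.57, SE 0.0965, adjusted p = 0.00447), whereas its ligand IHH was off in stromal cells. FGFR2, FGFR3 and BMPR1B were not called, with log2 fold changes of 0.03, -0.70 and 0.92.

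Genes of the insulin and IGF system held no on/off gene, and 3 of 11 tested were higher in epithelial cells, 2 higher in stromal cells and 6 not called, beside 29.9% and 29.5% of all genes tested. At 0.899% of all genes, no on/off gene in a list of this size is not a result about the family. INSR, the insulin receptor, had 50.4, 34.1 and 48.1 CPM in epithelial and 22.6, 24.1 and 25.6 CPM in stromal libraries (log2 fold change 0.75, SE 0.153, adjusted p = 0.00898). IGF1R, the receptor of insulin-like growth factors, had 202, 163 and 199 CPM against 188, 199 and 196 CPM (log2 fold change -0.16, SE 0.118, adjusted p = 0.277). Every INSR level in epithelial cells lay above every stromal level, while the IGF1R levels overlapped. IGF2R, IRS1 and IRS2 were not called, with log2 fold changes of 0.01, -0.16 and -0.10, and the median of the list was -0.10, or 0.04 without replicate 1.

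The IGF binding proteins were divided. IGFBP3 was higher in epithelial cells with 393, 1087 and 565 CPM against 76.0, 56.8 and 38.9 CPM (log2 fold change 3.39, SE 0.394, adjusted p = 0.00119), and IGFBP2 with 162, 180.0 and 151 CPM against 45.3, 101 and 30.4 CPM. IGFBP7 was higher in stromal cells with 577, 564 and 456 CPM against 33.0, 15.0 and 43.9 CPM (log2 fold change -4.34, SE 0.369, adjusted p = 0.000427). None of these 3 binding proteins overlapped between the cell types. IGFBP4 was called higher in stromal cells (log2 fold change -2.22, adjusted p = 0.00639), but not without replicate 1 (-2.03). IGFBP5 and IGFBP6 were not called (1.39, adjusted p = 0.0633, and -0.42, adjusted p = 0.0704).

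Steroid hormone receptors differed less than the on/off genes. ESR1, an estrogen receptor, had 70.3, 72.1 and 64.4 CPM in epithelial and 28.0, 26.8 and 27.9 CPM in stromal libraries (log2 fold change 1.21, SE 0.110, adjusted p = 0.000527). PGR, the progesterone receptor, had 10.6, 7.20 and 10.1 CPM against 11.8, 12.3 and 13.7 CPM (log2 fold change -0.56, SE 0.183, adjusted p = 0.0441), and its call was lost without replicate 2 (-0.41) or 3 (-0.53) and with DESeq2. The levels of ESR1 and PGR did not overlap between the cell types. NR3C1, PGRMC1 and PGRMC2 were not called, with log2 fold changes of 0.03, -0.35 and 0.04, and the median of the 6 genes was -0.16.

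Immune markers were low in both cell types, the endothelial marker VWF was higher in epithelial cells, and smooth muscle and pericyte markers were mostly higher in stromal cells. Summed over the immune markers CD68, CD14, CSF1R and AIF1, the level lay between 3.08 and 5.97 CPM in epithelial libraries and between 5.37 and 6.70 CPM in stromal libraries. CSF1R, the macrophage growth factor receptor, was higher in stromal cells with 1.57, 2.29 and 3.07 CPM against 0, 0 and 1 counts, and CD68 and CD14 were not called (log2 fold change -0.02 and 0.01). Summed over the endothelial markers PECAM1, CDH5, VWF, TEK and TIE1, it lay between 17.3 and 26.3 CPM in epithelial libraries and between 2.66 and 4.91 CPM in stromal libraries. Most of it was VWF (16.7, 25.8 and 19.99 CPM in epithelial libraries), while CDH5, the cadherin that defines endothelial cells, had 0, 1 and 0 counts there, and TEK was not called. Smooth muscle and pericyte markers summed to between 75.3 and 458 CPM in epithelial libraries and between 3948 and 5413 CPM in stromal libraries. Of 5 tested, 4 were higher in stromal cells, beside 29.5% of all genes tested. ACTA2, the smooth muscle actin that cultured fibroblasts also make, had 3064, 2743 and 4124 CPM in stromal libraries, whereas MYH11, the smooth muscle myosin, was at 2.78, 0.509 and 3.47 CPM in them and was not called. The part of such cells in any difference was not tested. PTPRC, CD3E, KDR, KRT14, TP63, MUC16, COL6A6 and ESR2 were not analysed here.

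The on/off genes were then followed into 24 libraries that had not chosen them, although the stromal ones had entered the choice of the dose. Those of the insulin experiment share replicate numbers with the libraries that chose the genes. Summed over the 141 genes, epithelial libraries of replicates 1, 2 and 3 held 7844, 10687 and 9528 CPM at 1 ng/mL insulin. They held 7662, 10534 and 9230 CPM in the vehicle control and 8031, 10615 and 9494 CPM at 10 ng/mL insulin. Whether these conditions shared cell preparations was not tested, so they are not taken as independent samples. In the vehicle control 141 of the 141 epithelial genes were called higher in epithelial cells, as were 28.2% of all genes tested, and at 10 ng/mL insulin 141 were, beside 27.3%. At 5 mM glucose 136 were called, beside 10.8%, and at 50 mM glucose 64 were, beside 6.57%, but 6 without the replicate block. The 5 genes short at 5 mM included GCNT3, HOXB2 and KCTD14, which were not called, and KRT73, which was not tested. The levels of 141, 141, 140 and 105 of the genes did not overlap between the cell types in these 4 conditions. The share of all genes without overlap was not computed, so these counts are a description only.

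The 12 stromal genes were called higher in stromal cells 12 times in the vehicle control and at 10 ng/mL insulin, beside 27.8% and 27.6% of all genes, 11 times at 5 mM glucose, beside 10.7%, and 12 times at 50 mM, beside 11%, but 7 times there without the replicate block. ELN was not tested at 5 mM glucose, where its stromal libraries held 0.391, 2.39 and 4.15 CPM. With replicate 1 left out at 50 mM glucose, 0 of the 141 and 0 of the 12 genes were called, and with replicate 3 left out 140 of the 141 were.

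The near-absolute off state was met by few genes elsewhere. The dose was chosen for less epithelial RNA in its stromal libraries than in those conditions, so for the epithelial genes part of this follows from the choice. Of the 141 genes, 5 met the same on/off rule in the vehicle control (PADI1, ARHGAP30, ANGPTL8, SEMA6A and ENSBTAG00000051851), 5 at 10 ng/mL insulin (KIAA1324, ANGPTL8, DLL4, SFTA2 and ENSBTAG00000051851), 2 at 5 mM glucose (SFTA2 and GALNT17) and 0 at 50 mM glucose. The off side of the rule set these counts, since 138 and 137 of the genes had at least 10 CPM in every epithelial library of the vehicle control and 10 ng/mL insulin, while 7 and 5 had at most 3 counts in each stromal library. Applied afresh to each condition, the rule gave 7 epithelial (0.0447%) and 6 stromal genes (0.0383%) in the vehicle control, 6 (0.0383%) and 9 (0.0574%) at 10 ng/mL insulin, 3 (0.0191%) and 0 (0%) at 5 mM and 0 (0%) and 0 (0%) at 50 mM glucose.

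Single stromal libraries held most of these reads. Summed over the 141 genes, the stromal libraries of replicates 1, 2 and 3 held 0.0901%, 0.0635% and 0.107% of the epithelial level at 1 ng/mL insulin. They held 0.192%, 3.83% and 0.114% in the vehicle control and 3.35%, 0.0664% and 0.356% at 10 ng/mL insulin. In the glucose experiment they held 5.93%, 0.213% and 0.261% at 5 mM and 13.3%, 5.29% and 59.4% at 50 mM. The low values at 1 ng/mL restate how the dose was chosen. With the stromal library of replicate 2 set aside, 112 of the 141 genes met the rule in the vehicle control, and with that of replicate 1 set aside 102 did at 10 ng/mL insulin and 81 at 5 mM glucose.

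The summed epithelial markers moved with these values, at 4.10% in the vehicle library of replicate 2, 3.60% in the 10 ng/mL library of replicate 1 and 53.1% in the 50 mM library of replicate 3, and their part in the counts was not tested. At 5 mM glucose the summed markers were at 4.83%, 4.12% and 0.947%, but the median over the markers was 4.78%, 0.132% and 0.129%, so that most markers were low in replicate 2, as the on/off genes were. In the vehicle library of replicate 2 the interquartile range of the 141 genes was 2.77% to 5.14% of the epithelial level, with a median of 3.64%. In the 10 ng/mL library of replicate 1 it was 2.67% to 4.52%, with a median of 3.52%. Most of the genes thus stood at a similar share in these libraries, and EPCAM had 245 and 234 counts there, against 2, 0 and 0 counts at 1 ng/mL.

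**Figure D5:**
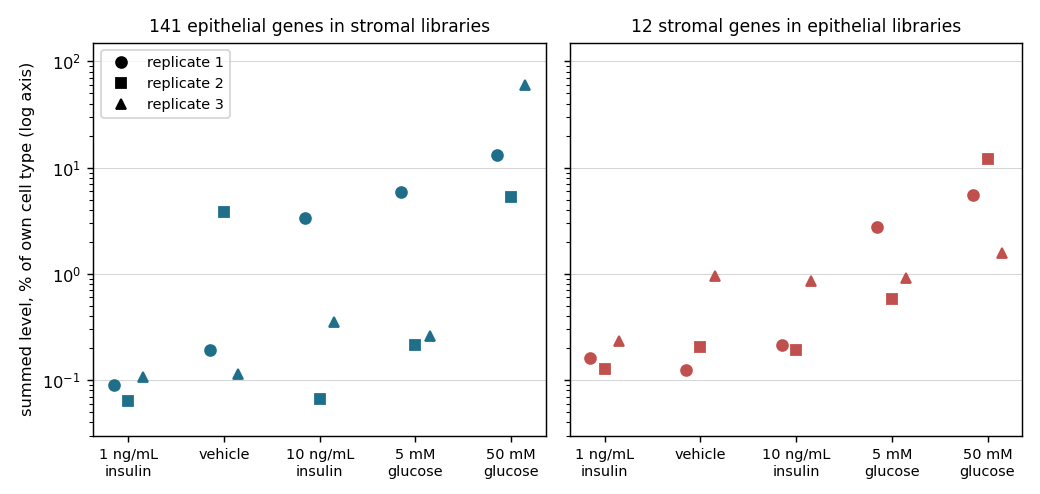
Summed level of the 141 epithelial on/off genes in each stromal library (left) and of the 12 stromal on/off genes in each epithelial library (right), in % of the mean of the own cell type in the same condition on a log axis; marker shape gives the replicate number. The 3 libraries at 1 ng/mL insulin lie between 0.0635% and 0.107% on the left and between 0.128% and 0.236% on the right.

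Of the 12 stromal genes, 4 met the rule in the vehicle control (FAM180A, HAND1, SGCD and MFAP4) and 6 at 10 ng/mL insulin (the same 4 with EPHA5 and KCNJ5), but 0 did at 5 mM or 50 mM glucose. FAM180A had 0 counts in all 9 epithelial libraries of the insulin experiment. The summed level of the 12 genes in epithelial libraries was highest in replicate 3, with 0.950% of the stromal level in the vehicle control and 0.859% at 10 ng/mL insulin, against 0.125% to 0.212% in the other libraries of those conditions.

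Whether the difference between the cell types at 1 ng/mL insulin differed from that in the vehicle control and at 10 ng/mL insulin was tested over the 18 insulin libraries. Of 13545 protein-coding genes tested, 0 were called (0%) by the quasi-likelihood test of edgeR, with a smallest adjusted p of 0.749 and 849 genes at an unadjusted p under 0.05, and DESeq2 called 10. In order of p, the first genes with a larger difference toward epithelial cells were ESYT1, COX19, PPARGC1B, MAPK4 and GNA15, and toward stromal cells MT-ND6, RPL22, AGAP2, EMP1 and TRIQK. Since the dose was chosen for its low epithelial RNA in stromal libraries, no direction is read from the calls of DESeq2.

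In the order of genes in the RefSeq annotation, 128 of the 141 epithelial genes were matched by Ensembl identifier or, where that was missing, by symbol. There were 4 pairs of direct neighbours, which were MUC20 with MUC4, DLX6 with DLX5, PKP3 with B4GALNT4 and C3H1orf210 with TMEM125. DLX5 and DLX6, a pair of homeobox genes, had 22.3, 23.8 and 19.7 CPM and 14.5, 15.0 and 14.6 CPM in epithelial libraries. Of the genes next to a member, 152 were tested and 68 were called higher in epithelial cells (44.7%), beside 29.9% of all genes tested, with no test of that share. The 4 pairs enter this count from both sides, and all 141 members were called, so part of the share follows from the rule. The 12 stromal genes held 0 such pairs.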

How the data were processed

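RNA was extracted separately from epithelial-enriched and stromal-enriched cells, and stranded libraries were sequenced from one end. Per the labels and the study's methods, the authors trimmed reads with cutadapt, checked them with FastQC, aligned them with Rsubread to the bovine genome, kept uniquely mapped reads and counted them per gene with featureCounts. The tool versions are not given in the sources used here. The deposited values used here are raw counts per gene, 1 column per library, in 27607 genes. Symbols and gene types were taken from the deposited comparison tables, which hold them for 17468 genes. The fold changes and p-values in those tables are the authors' own and were not used. Reads of overlapping genes or near-identical copies could be split between identifiers, as for ZEB2 and NRG1.

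CPM was computed per library total. The counts were tested with edgeR 4.0.16 in R 4.3.3 (TMM scaling, filterByExpr, glmQLFit and glmQLFTest) with the replicate number as a block, as in the paired design of the study, and p-values were adjusted over all genes tested. Calls were counted on protein-coding genes. Deviations from the group means correlated at 0.202, 0.195 and 0.248 between libraries of the same number and at -0.161 to -0.041 between others, so the numbers were taken to pair the libraries. The labels call the replicates biological but do not tie them to animals. The p-values thus rest on the spread between these samples that remains after the replicate block. No pair of libraries was alike within counting noise. In simulated data for the 1 ng/mL comparison, the test recovered 96 of 100 genes changed 2-fold and 100 of 100 changed 4-fold, with 8 false calls among 13436 genes. For the difference between doses it recovered 80 and 99 of 100, with 6 false calls among 14105 genes. The simulated counts had a single fixed dispersion for all genes and no replicate effect, and very low genes were not among those changed. In the first simulation the cell types were otherwise equal. The real libraries differ in these respects, so the rates are not the power of the tests in them.

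The members, the gene lists and the tests were chosen with earlier results of these data known. The 16 lists covered keratins, epithelial junctions, polarity and trafficking, regulators, secreted and apical proteins, collagens, stromal matrix proteins, mesenchymal regulators, stromal surface receptors, paracrine ligands, paracrine receptors, the insulin and IGF system, steroid hormone receptors, and markers of immune, endothelial and smooth muscle cells. Genes were named if they were cell type markers, among the 12 on/off genes with a symbol and the largest separation in each direction, on/off members of a list, up to 4 further members of a list by separation, list members not called where there were at most 6, the nearest 2 on each side of a threshold, or among the first 5 by p in each direction for the difference between doses. Others were named after their values were seen, and some list members are not reported here. Alternatives used DESeq2 1.42.0, its size factors in edgeR, no filter, no block, other thresholds and each replicate left out. Gene order came from the RefSeq annotation of ARS-UCD2.0, from which no coordinates are given.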

Additional observations from a re-analysis of the deposited data

How the results depend on the processing

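Counts of on/off genes followed the thresholds, and those of the called genes moved less. With a log2 fold change beyond 1, 4349 genes were called, 2236 toward epithelial and 2113 toward stromal cells, and leaving out a replicate left 6179 to 6548. DESeq2 called 6467 and its size factors in edgeR 7618. The epithelial and stromal on/off genes numbered 43 and 1 at 0 counts in each off library, 231 and 38 at up to 10 counts, 394 and 149 at a level of 1 CPM, 49 and 2 at 50 CPM, and 157 to 185 and 12 to 25 (the highest without replicate 3) with 1 replicate left out. At under 1% of the own level in each off library, chosen after seeing the data, they numbered 194 and 13.

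Without the replicate block 7572 genes were called at 1 ng/mL, but at 50 mM glucose 6 of the epithelial on/off genes were, against 64 with it, and 7 of the stromal ones, against 12. The medians became 8.48 for polarity and -0.013 for the insulin and IGF genes, and the log2 fold change of SPP1 turned to 0.28. MME lost its call, and PGRMC1 and TEK gained one.

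At 50 mM glucose, 139 epithelial on/off genes were called with DESeq2 and 124 without the filter, 0 to 140 with 1 replicate left out, and 0 to 12 of the stromal genes. The on/off pattern was met by 112, 102 and 81 of the epithelial genes in the vehicle control, at 10 ng/mL insulin and at 5 mM glucose without the stromal library that held most of their reads, an alternative chosen after seeing the data. The difference between doses gave 10 calls with DESeq2, 1 without the filter and 0 to 4 with 1 replicate left out. The cause of these changes was not tested.

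With 1 replicate left out, list medians ran from 8.67 to 9.001 for junctions, 8.40 to 8.91 for polarity, 8.30 to 8.98 for epithelial regulators, 0.39 to 0.56 for paracrine receptors and -0.17 to 0.036 for the insulin and IGF genes. The stromal markers in the epithelial library of replicate 3 were at 8.01% by the median over markers. Of genes not called, the log2 fold change turned with 1 replicate left out for SPP1 (-0.45 to 0.49), COL8A1 (-2.48 to 0.23), OSR1 (-0.039 to 0.49), FGFR2 (-0.25 to 0.45), FGFR3 (-1.26 to 0.13), IGF2R (-0.067 to 0.058), IRS2 (-0.51 to 0.14), NR3C1 (-0.15 to 0.21), PGRMC2 (-0.055 to 0.12) and MYH11 (-0.74 to 0.11).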

Other observations

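Several genes best known from blood cells were on in epithelial and off in stromal cells, although the immune markers were low in both. They were picked after their values were seen. CD74, the invariant chain of MHC class II, had 75.9, 198 and 50.3 CPM in the epithelial libraries of replicates 1, 2 and 3 at 1 ng/mL insulin and 0, 1 and 1 counts in the stromal libraries. LMO2, a transcriptional adaptor of blood development, had 72.0, 53.7 and 64.3 CPM and 1, 0 and 0 counts. SKAP1, an adaptor of T cell signalling, had 21.9, 27.7 and 26.7 CPM and 0 counts in every stromal library, and RAC2, a GTPase of blood cells, had 19.6, 23.2 and 15.0 CPM and 0, 0 and 2 counts. CD74 varied most between replicates, with replicate 2 highest, and LMO2 and SKAP1 varied little. All 4 genes were also called higher in epithelial cells in the vehicle control and at 10 ng/mL insulin, beside 28.2% and 27.3% of all genes tested. All 141 epithelial on/off genes were called there, so these calls are not particular to the 4. In the epithelial libraries of these 2 conditions CD74 had 78.3, 199 and 52.1 CPM and 85.7, 211 and 41.6 CPM.

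KRT8 and KRT18 parted from the other epithelial markers in 1 stromal library. Stromal cells of replicate 2 at 5 mM glucose had a library in which KRT8 had 146 CPM and KRT18 had 176 CPM, while KRT7 had 0.251, KRT19 1.01, CDH1 1.19 and EPCAM 0 CPM. Replicate 1 of the same group held all 6, with 77.3 CPM of KRT8, 47.4 of KRT18, 71.9 of KRT7, 98.6 of KRT19, 54.5 of CDH1 and 31.3 of EPCAM. In the same library of replicate 2, the homeobox gene HOXB2 was at 29.2% of its epithelial level, the highest of the 141 epithelial on/off genes, whose median there was 0%. At 50 mM glucose, in replicate 2 of the stromal cells, HOXB2 was at 59.8%, again the highest, beside a median of 5.38%.

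ELN differed between the experiments. It had 65.5, 16.0 and 114 CPM in the stromal libraries of the vehicle control, and 0.391, 2.39 and 4.15 CPM in those of 5 mM glucose, the same glucose concentration. FAM180A had 87.3, 61.6 and 88.6 CPM and 35.7, 18.1 and 29.4 CPM. The experiments were counted separately, and the difference between them was not tested.

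KRT17, a keratin of stressed and basal epithelia, missed the on/off rule through replicate 2. It had 39.6, 4.48 and 39.0 CPM in epithelial libraries at 1 ng/mL insulin and 0 counts in every stromal library, and the vehicle control gave the same order with 37.2, 5.58 and 37.3 CPM.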
